A study of Homo sapiens with 10 samples.

Results

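The MYC, MAX and MXD network was followed in LoVo cells, an established human cell line from a colorectal adenocarcinoma, by way of 10 genes fixed by name: MYC, MYCN, MYCL, MAX, MXD1, MXD3, MXD4, MXI1, MNT and MLX. Of the 19775 genes that the arrays measured with a probe set of their own, 9 belong to the network, since all 3 probe sets of MXD4 also carry the symbol of a microRNA gene, MIR4800, and give no value here. Transcripts were profiled with the Affymetrix HG-U133 Plus 2.0 array in 4 cultures of ADMA-treated cells, which received 10 μM asymmetric dimethylarginine (ADMA, a product of protein methylation and breakdown that blocks nitric oxide synthesis) in serum-free medium, in 3 cultures of serum-starved cells in the same medium without ADMA, and in 3 cultures of control cells in medium with 10% fetal bovine serum, all for 96 h and each on an array of its own. ADMA was given in serum-free medium alone, so that its effect was measured on starved cells, and all samples come from a single cell line. The arrays were labelled as biological replicates with no further detail, so that the p-values measure the spread between these cultures. All 10 epithelial markers of the colon that were looked up, among them CDX2, KRT20 and CDH17, lay above the low-signal filter in these libraries.

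MYC, MYCN and MYCL are transcription factors that bind the E-box in DNA as heterodimers with MAX and raise the transcription of genes for growth, ribosome production and nucleotide synthesis. MXD1, MXD3, MXD4, MXI1 and MNT compete for MAX and for the same sites, and repress transcription through the SIN3 corepressor. MLX is the dimer partner of the glucose-sensing Mondo proteins and can also pair with MNT and some MXD proteins. In the colon, MYC is known as a target gene of Wnt signalling, and MXD1 as a gene of differentiating, non-dividing cells.

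Promoter sequences are shown for 4 members, to set MYCN and MXD3, which serum starvation lowered, beside MXD1 and MNT, which it raised. They were taken from RefSeq (GRCh38.p14) and run 5′ to 3′ on the strand of the gene, from 250 bases before the annotated start of the gene to 20 bases from it. Capitals mark matches on either strand to the E-box CACGTG, its variant CACGCG, the E2F sites TTTGGCGC and TTTCGCGC, and the GC box GGGCGG. The windows are chr2:15940300-15940569 (plus strand) for MYCN, chr5:177312733-177313002 (minus strand) for MXD3, chr2:69914859-69915128 (plus strand) for MXD1 and chr17:2401041-2401310 (minus strand) for MNT.
MYCN: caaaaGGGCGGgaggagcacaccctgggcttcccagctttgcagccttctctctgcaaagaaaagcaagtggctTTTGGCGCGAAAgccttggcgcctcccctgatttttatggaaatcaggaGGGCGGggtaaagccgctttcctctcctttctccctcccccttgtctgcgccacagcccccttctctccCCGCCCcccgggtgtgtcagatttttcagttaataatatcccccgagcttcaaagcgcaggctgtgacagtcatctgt
MXD3: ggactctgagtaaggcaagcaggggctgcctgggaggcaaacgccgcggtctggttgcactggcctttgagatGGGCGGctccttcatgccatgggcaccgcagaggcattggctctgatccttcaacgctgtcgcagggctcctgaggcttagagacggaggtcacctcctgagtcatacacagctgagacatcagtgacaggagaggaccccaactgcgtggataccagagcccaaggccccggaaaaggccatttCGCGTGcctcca
MXD1: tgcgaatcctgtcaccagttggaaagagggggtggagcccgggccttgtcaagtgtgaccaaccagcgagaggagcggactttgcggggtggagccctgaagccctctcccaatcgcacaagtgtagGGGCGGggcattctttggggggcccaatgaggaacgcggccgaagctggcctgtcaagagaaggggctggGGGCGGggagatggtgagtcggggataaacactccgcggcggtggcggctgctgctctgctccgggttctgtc
MNT: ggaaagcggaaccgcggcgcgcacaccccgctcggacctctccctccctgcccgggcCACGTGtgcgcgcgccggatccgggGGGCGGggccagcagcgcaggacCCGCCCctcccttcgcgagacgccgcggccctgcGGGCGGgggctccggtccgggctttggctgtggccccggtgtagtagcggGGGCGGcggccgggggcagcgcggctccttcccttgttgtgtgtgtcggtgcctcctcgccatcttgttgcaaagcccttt

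In the MYCN window the E2F sites lay at -176 to -169 and, on the opposite strand and overlapping it, at -172 to -165 from the start. The MNT window held an E-box at -193 to -188 and 4 GC boxes. The MXD3 window held the E-box variant at 9 to 14 and 1 GC box, and the MYCN window also held 3 GC boxes. The MXD1 window held 2 GC boxes and none of the other letters. Over the 300-base windows of the 9 members other than MYC, which include the unmeasured MXD4 and were 12 in number because some genes have several starts, 3 held the E-box, in MXD4, MNT and MLX, against 7.26% of all 35116 promoter windows of this length. The E-box variant was found in 2 of the 12 windows, against 11.4% of all windows, an E2F site in 1 of the 12, against 1.15%, and the GC box in 11 of the 12, against 45% of all windows. These matches describe letters only.

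The deposited signals are linear intensities scaled by the authors to the same trimmed mean of 500.1 on every array, yet their median lay at 91.9 to 98.1 after ADMA, at 87.5 to 90.7 in serum-starved cells and at 60.7 to 73.1 in control cells. Differences are given on the log2 scale with their standard error, and a gene is said to be called, or to have risen or fallen, where limma's Benjamini-Hochberg adjusted p over 12342 tested genes was under 0.01 and the fold at least 1.2. All 9 members with a value passed the filter on low signal, a mean of 76.3. Because each array read the RNA of a whole culture, a change in a gene's RNA per cell and a change in the share of cells that express it cannot be told apart. Because each array was also scaled to a common level, a change in total RNA per cell is not seen. The control probe set for 28S ribosomal RNA read 1187 to 1631 after ADMA, 1783 to 3023 after serum starvation and 487.6 to 565.7 in full serum, and ACTB, read as the signal at its 3′ end over that at its 5′ end, was 1.02 to 1.05 after ADMA, 1.13 to 1.23 after serum starvation and 1.01 to 1.08 in full serum. Of the markers of other cell types, the filter was passed by 3 of 6 genes of fibroblasts, 1 of 4 of endothelium, 1 of 4 of leukocytes and 1 of 2 of red cells or serum (COL1A1, DCN, LUM, PECAM1, LYZ and HBB). The summed leukocyte signal, with LYZ the sole gene of that list above the filter, was 1364 to 2002 after ADMA, 3942 to 4655 after serum starvation and 437.1 to 708.5 in full serum. The part of these measures in the results below was not tested.

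Serum starvation was first compared with growth in full serum. Of the 9 members, 2 rose (MXD1 and MNT) and 4 fell (MYC, MYCN, MYCL and MXD3) in serum-starved cells, while 57.6% of all tested genes were called in this comparison, 30.3% higher and 27.3% lower, so that 6 of 9 is near the background. Their median difference was -0.25, against 0.07 over all tested genes. When each array was centred on its median, which moved all differences of this comparison by -0.39, 2 members rose and 6 fell. With ADMA against serum starvation, 4 members rose (MYC, MYCN, MYCL and MXD3) and 1 fell (MXD1), against 29.5% of all tested genes called, 15.7% higher and 13.8% lower, and the members' median difference was 0.20, against 0.03 over all tested genes. With ADMA against control cells, 3 rose (MXD1, MNT and MLX) and 2 fell (MYCL, and MAX by its brightest probe set), against 49.8% of all tested genes called, 26.6% higher and 23.2% lower; these became 4 and 1 with quantile normalization and 2 and 4 with median centring, which moved all differences by -0.51. The comparisons share arrays, so that each one's values are given side by side and none is independent of the others.

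**Figure D1:**
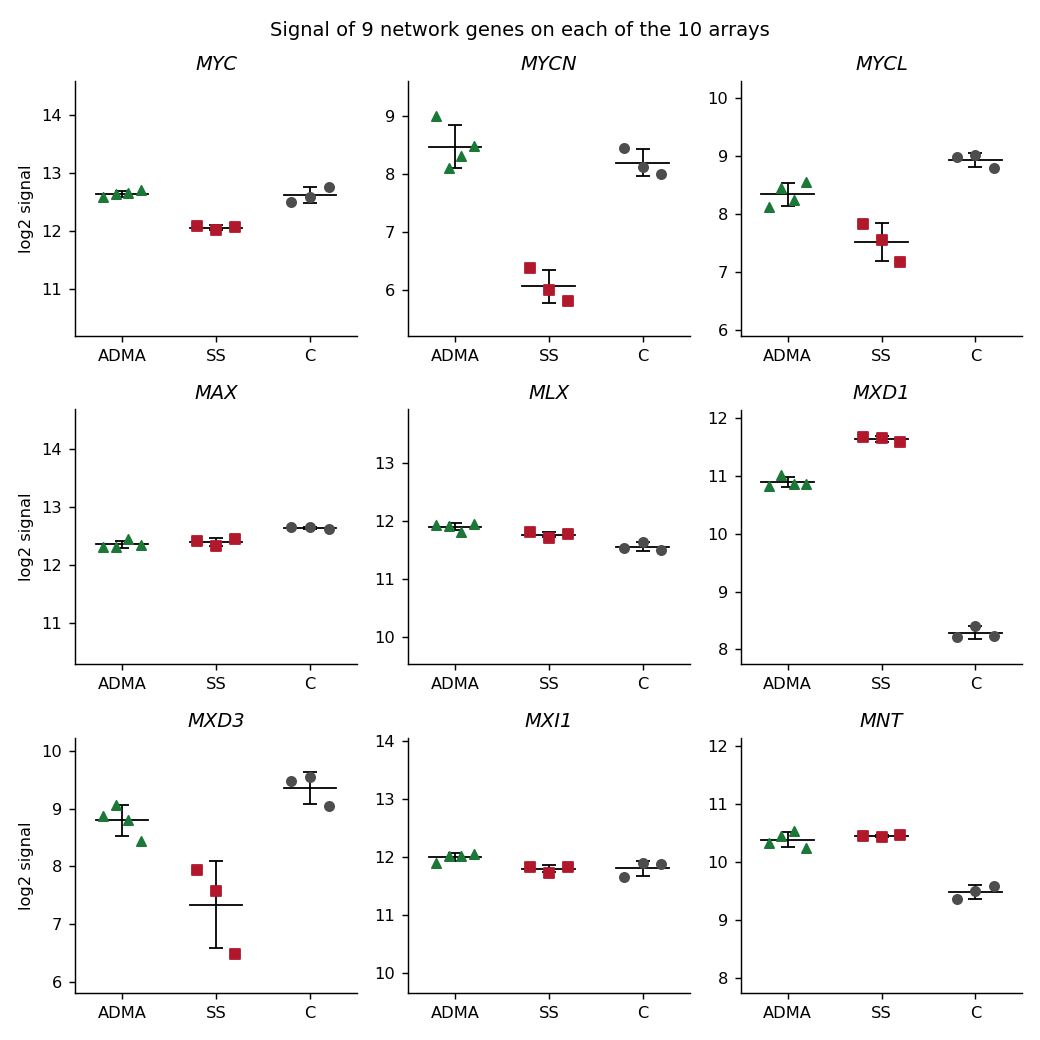
Log2 signal (vertical axis) of the 9 measured members of the network on each of the 10 arrays, with 1 panel per gene, 1 point per array, a long bar at the group mean and whiskers of 1 SD, for ADMA-treated, serum-starved and control cells from left to right. MYC, MYCN, MYCL and MXD3 were lowest in serum-starved cells, without overlap with the other groups, whereas MXD1 was highest there.

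MYC itself, measured by the single probe set 202431_s_at, gave signals of 6153, 6372, 6482 and 6705 in ADMA-treated cells, 4377, 4145 and 4316 in serum-starved cells, and 5837, 6191 and 6988 in control cells. All 3 serum-starved arrays lay below every array of the other groups, and the ADMA-treated arrays lay within the range of the control arrays. MYC fell 1.48-fold in serum-starved cells against control cells, with a value of -0.56 in log2 units (standard error 0.067, adjusted p = 2.73e-06). It rose 1.5-fold in ADMA-treated cells against serum-starved cells, by 0.59 (standard error 0.0625, adjusted p = 4.62e-06). Between ADMA-treated and control cells the difference was 0.02, with a 95% interval of -0.11 to 0.158 (adjusted p = 0.761), but -0.48 (adjusted p = 0.000103) once arrays were centred on their medians, and its sign turned too when control replicate 1 was left out, at -0.03.

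MYCN, the paralogue best known from neural tumours, was measured by probe set 209757_s_at at 509, 276, 318 and 356 in ADMA-treated cells, 82.9, 63.8 and 56.3 in serum-starved cells, and 350, 280 and 256 in control cells. The serum-starved arrays were set apart from all others, at levels not far above the background of those arrays, which was 57.3, 41.4 and 50.1, so that MYCN passed the filter on low signal through the other groups. MYCN fell 4.38-fold in serum-starved cells against control cells (log2 difference -2.13, standard error 0.233, adjusted p = 1.15e-06). It rose 5.32-fold in ADMA-treated cells against serum-starved cells (2.41, standard error 0.218, adjusted p = 9.83e-07). ADMA-treated and control cells overlapped, with a difference of 0.28 and a 95% interval of -0.188 to 0.747, and of -0.23 after median centring. The other 9 MYCN probe sets lay below the low-signal filter and were not tested. The brightest of them, 242026_at, went the other way without overlap, at 63.4, 47 and 60.8 in serum-starved and 46.4, 34.3 and 43.4 in control cells. It was under background on 2 control arrays, and read 35.2 to 106 in ADMA-treated cells. The rest overlapped between serum-starved and control cells.

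MYCL, a further member of the family first found in lung cancer, read 277, 351, 304 and 376 in ADMA-treated cells, 227, 187 and 144 in serum-starved cells, and 504, 519 and 442 in control cells with probe set 214058_at. The 3 groups did not overlap, and ADMA-treated cells lay between the others. MYCL fell 2.67-fold in serum-starved cells against control cells (-1.42, standard error 0.174, adjusted p = 4.08e-06) and rose 1.78-fold in ADMA-treated cells against serum-starved cells (0.83, standard error 0.163, adjusted p = 0.00089). The fall of 1.5-fold in ADMA-treated cells against control cells (-0.59, standard error 0.163, adjusted p = 0.00599) was lost when control replicate 1 or 2 or ADMA replicate 1 or 3 was left out, where the difference was -0.51 to -0.56 and the adjusted p 0.0157 to 0.0285. The second probe set, 215491_at, was dim, at 30.4 to 132 over all arrays, and was not called in any comparison. The rise with ADMA was not called when the probe sets were averaged, at 0.42, and the fall against control cells was also lost then, at -0.49, and without the filter on low signal (adjusted p = 0.0113).

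MAX, the common partner of MYC and of its antagonists, was measured by probe set 209332_s_at at 5126, 5101, 5583 and 5245 in ADMA-treated cells, 5491, 5137 and 5592 in serum-starved cells, and 6452, 6487 and 6301 in control cells. The control arrays were the highest, and ADMA-treated and serum-starved cells overlapped. In serum-starved cells the difference to control cells was -0.25 (standard error 0.0567, adjusted p = 0.00132), a 1.19-fold change that was below the fold required, although it passed without serum-starved replicate 3, at -0.27 (adjusted p = 0.0016). MAX fell 1.22-fold in ADMA-treated cells against control cells (-0.29, standard error 0.0531, adjusted p = 0.000268), and the call was lost with quantile normalization, at -0.17. The other 4 MAX probe sets were called in no comparison, with differences between serum-starved and control cells of -0.01, -0.11, 0.36 and 0.06, and the mean of the 5 probe sets differed by 0.01 there and by 0.05 between ADMA-treated and control cells. No direction is therefore given for MAX as a gene.

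Among the antagonists, MXD1, which pairs with MAX and recruits SIN3, showed the widest difference of all members. With probe set 228846_at it read 1801, 2058, 1853 and 1852 in ADMA-treated cells, 3270, 3199 and 3058 in serum-starved cells, and 296, 341 and 301 in control cells. The 3 groups did not overlap, with serum-starved cells highest and ADMA-treated cells between them and control cells. MXD1 rose 10.2-fold in serum-starved cells against control cells (3.35, standard error 0.0798, adjusted p = 3.44e-13) and was still 6.05-fold higher in ADMA-treated cells than in control cells (2.60, standard error 0.0746, adjusted p = 2.43e-12). ADMA-treated cells had a 1.68-fold lower signal than serum-starved cells (-0.75, standard error 0.0746, adjusted p = 2.43e-06).

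The fall of MXD1 with ADMA was not called with its other probe sets. Probe set 226275_at read 1978, 1979, 1685 and 1815 in ADMA-treated cells, 2616, 2549 and 2375 in serum-starved cells, and 177, 272 and 281 in control cells. In a fit of every probe set above the filter, which was added after the data had been seen, it differed by 3.4 (standard error 0.142, adjusted p = 8.66e-11) between serum-starved and control cells, and by -0.43 between ADMA-treated and serum-starved cells (standard error 0.132, adjusted p = 0.0191), which missed the threshold although the groups did not overlap. Probe set 206877_at read 354, 338, 263 and 333 in ADMA-treated cells, 258, 344 and 449 in serum-starved cells, and 50, 27.8 and 10.9 in control cells, where it was under the background level on all 3 arrays, so that it passed the filter only through the other groups and its difference is given as a bound. Its signal was at least 7.23-fold higher in serum-starved cells and at least 6.77-fold higher in ADMA-treated cells than in control cells, while ADMA-treated and serum-starved cells overlapped, with a difference of -0.09.

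**Figure D2:**
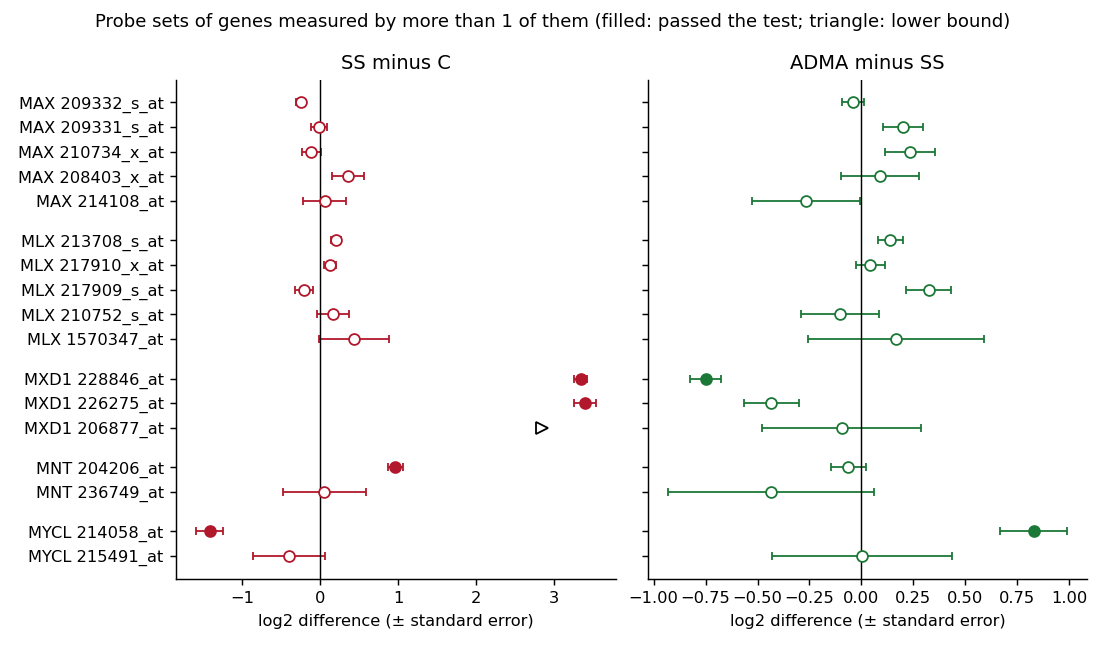
Log2 difference (horizontal axes, with whiskers of 1 standard error) of each probe set above the low-signal filter, for the members with more than 1 of them, in serum-starved (SS) against control cells (C) on the left and in ADMA-treated against serum-starved cells on the right, with filled points for called differences. A triangle marks the lower bound for 206877_at, which was under background in control cells. The other MXD1 probe sets, 228846_at and 226275_at, were called higher in serum-starved cells and 228846_at alone was called lower with ADMA, whereas no MAX or MLX probe set was called in either comparison.

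MXD3, an antagonist that in the mouse is known for expression in S phase, differed from MXD1 in direction. Its single probe set, 221250_s_at, read 470, 537, 447 and 346 in ADMA-treated cells, 245, 191 and 90.1 in serum-starved cells, and 715, 745 and 527 in control cells. Serum-starved cells were the lowest, and replicate 3 was the lowest of its group both there and in control cells. MXD3 fell 4.05-fold in serum-starved cells against control cells (-2.02, standard error 0.286, adjusted p = 1.69e-05) and rose 2.75-fold in ADMA-treated cells against serum-starved cells (1.46, standard error 0.267, adjusted p = 0.000509). The difference of -0.56 between ADMA-treated and control cells was not called (adjusted p = 0.0831), and it was called without serum-starved replicate 3, where its standard error was 0.165 in place of 0.267 (adjusted p = 0.00916), with only the arrays of those groups in the fit (adjusted p = 0.00784), and after median centring, at -1.07.

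MNT, the antagonist that is expressed in dividing and resting cells alike, read 1282, 1393, 1470 and 1199 in ADMA-treated cells, 1394, 1379 and 1402 in serum-starved cells, and 652, 725 and 762 in control cells with probe set 204206_at. Both serum-free groups lay above the control arrays and overlapped each other. MNT rose 1.96-fold in serum-starved cells against control cells (0.97, standard error 0.0891, adjusted p = 1.79e-07) and 1.87-fold in ADMA-treated cells against control cells (0.90, standard error 0.0834, adjusted p = 2.81e-07), while ADMA-treated and serum-starved cells differed by -0.06 with a 95% interval of -0.242 to 0.116. A second MNT probe set, 236749_at, was dim, at 23 to 146, and was not called, and with the average of both probe sets the calls against control cells were lost, at 0.51 in serum-starved cells and 0.26 in ADMA-treated cells.

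MXI1, a repressor that also recruits SIN3, read 3815, 4126, 4160 and 4247 in ADMA-treated cells, 3650, 3383 and 3637 in serum-starved cells, and 3226, 3791 and 3757 in control cells with its single probe set, 202364_at. The serum-starved and control arrays overlapped, and all 4 ADMA-treated arrays lay above both. None of its differences was called: it was 0.20 between ADMA-treated and serum-starved cells (adjusted p = 0.0255), 0.19 between ADMA-treated and control cells (adjusted p = 0.0235) and -0.01 between serum-starved and control cells, with a 95% interval of -0.164 to 0.142. After median centring the last 2 were -0.32 and -0.40, and with quantile normalization 0.29 and 0.09, so that no direction can be given for MXI1 against control cells.

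MLX, the partner of the Mondo proteins, read 3898, 3862, 3586 and 3925 in ADMA-treated cells, 3562, 3340 and 3486 in serum-starved cells, and 2947, 3182 and 2893 in control cells with probe set 213708_s_at. The 3 groups did not overlap, in the order of ADMA-treated, serum-starved and control cells. MLX rose 1.27-fold in ADMA-treated cells against control cells (0.34, standard error 0.0576, adjusted p = 0.000106), yet the difference was -0.16 after median centring, and the call was lost with the average of its probe sets, at 0.32. The difference of 0.20 between serum-starved and control cells (adjusted p = 0.00867) was 1.15-fold and below the fold required, and it was -0.185 after median centring. Another 4 MLX probe sets above the filter were not called in any comparison.

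**Figure D3:**
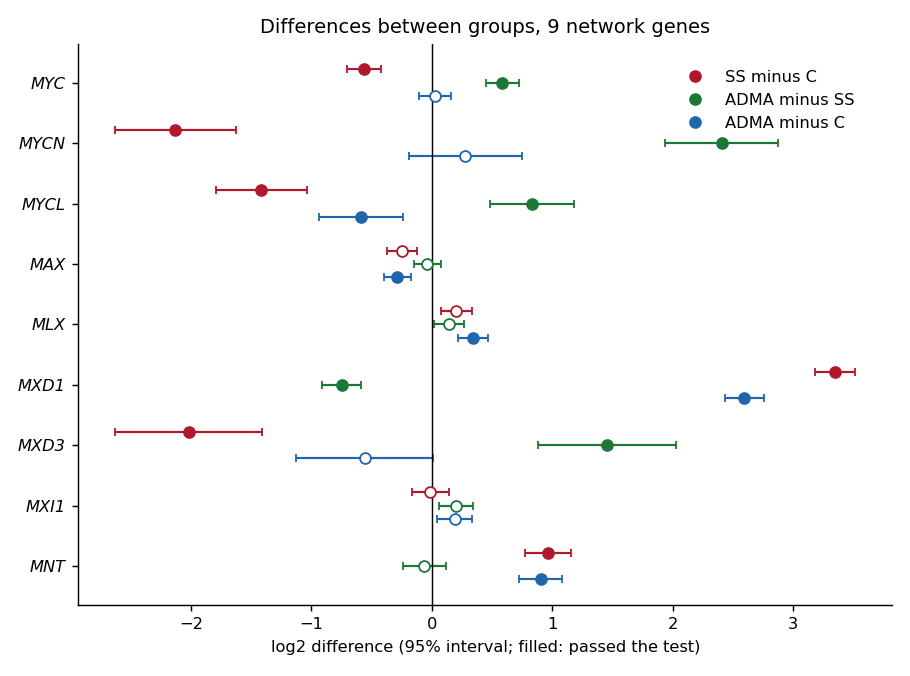
Log2 difference (horizontal axis) of each of the 9 measured members (rows) in serum-starved against control cells (SS minus C), ADMA-treated against serum-starved cells (ADMA minus SS) and ADMA-treated against control cells (ADMA minus C), with whiskers for the 95% interval of limma's fit and filled points for called differences. MXD1 reached 3.35 in serum-starved against control cells and -0.75 in ADMA-treated against serum-starved cells, and MYCN had -2.13 and 2.41 in the same comparisons. The MYCN signals in serum-starved cells were not far above background, so that MYCN passed the low-signal filter through the other groups.

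The groups did not overlap for 8 of the 9 members in serum-starved against control cells (71.3% of all tested genes), for 7 in ADMA-treated against serum-starved cells (46.1%) and for 6 in ADMA-treated against control cells (61.9%). In ADMA-treated against serum-starved cells MAX and MNT overlapped, and in ADMA-treated against control cells MYC, MYCN and MXD3 did.

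The level of MYC relative to each antagonist was then taken within each array, as the log2 of the ratio of the signals, which does not change with the scaling of the array. Such a ratio between different probe sets has no meaning as a level, and only its differences between groups are described. The ratio of MYC to MXD1 was 1.77, 1.63, 1.81 and 1.86 in ADMA-treated cells, 0.42, 0.37 and 0.50 in serum-starved cells, and 4.30, 4.18 and 4.54 in control cells. It was 15-fold lower in serum-starved against control cells and 2.52-fold higher in ADMA-treated cells than in serum-starved cells, and was still 5.96-fold lower in ADMA-treated cells than in control cells. The ratio of MYC to MNT was 2.26, 2.19, 2.14 and 2.48 in ADMA-treated cells, 1.65, 1.59 and 1.62 in serum-starved cells, and 3.16, 3.09 and 3.20 in control cells. It was 2.89-fold lower in serum-starved against control cells, and 1.57-fold higher in ADMA-treated cells than in serum-starved cells.

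The ratio of MYC to MXI1 was 1.47-fold lower in serum-starved against control cells, at log2 values of 0.25 to 0.29 against 0.71 to 0.90, and 1.31-fold higher in ADMA-treated cells, at 0.63 to 0.69, than in serum-starved cells. The ratio of MYC to MXD3 went the other way, being 2.74-fold higher in serum-starved against control cells, at 4.16 to 5.58 against 3.03 to 3.73, while ADMA-treated cells, at 3.57 to 4.28, overlapped both. In the exact two-sided permutation test all 4 ratios had p = 0.1 between serum-starved and control cells, the smallest that 3 arrays against 3 allow. Between ADMA-treated and serum-starved cells, and between ADMA-treated and control cells, the ratios to MXD1, MXI1 and MNT each had an exact permutation p = 0.0286, the smallest that 4 arrays against 3 allow, and 0.0381 adjusted over the 4 ratios. The ratio to MXD3 had an exact permutation p = 0.0857 and 0.143 in these comparisons. With the average of probe sets none of these ratios reached an adjusted p under 0.05, and that of MYC to MNT differed by -0.24 between ADMA-treated and control cells (exact permutation, adjusted p = 0.371). MYC, MXI1 and MXD3 have 1 probe set each, so that averaging left the ratios to MXI1 and MXD3, and their exact p, unchanged. The adjusted p of the ratio to MXI1 rose only through the p of the other ratios. Its loss there says nothing about that ratio.

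**Figure D4:**
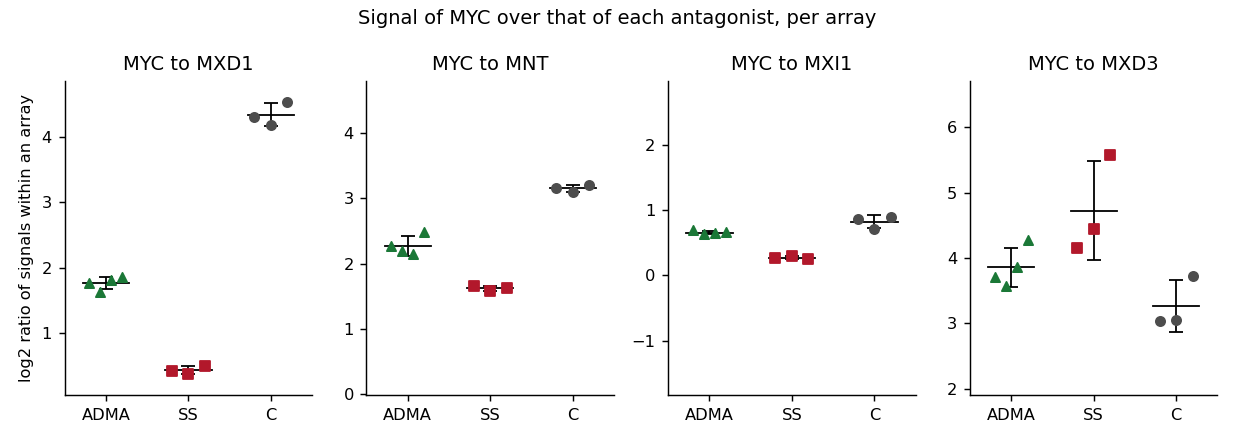
Log2 of the within-array ratio of the MYC signal to that of MXD1, MNT, MXI1 and MXD3 (vertical axes), 1 panel per antagonist and 1 point per array, with long bars at the group means and whiskers of 1 SD, for ADMA-treated, serum-starved (SS) and control cells (C) from left to right. Against MXD1, MNT and MXI1 the serum-starved arrays lay lowest, the control arrays highest and the ADMA-treated arrays between them without overlap.

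Genes that act with the network were taken from lists, and each count of called genes is to be read against the share of all tested genes called, 57.6% in serum-starved against control cells and 29.5% in ADMA-treated against serum-starved cells. The partners of MLX and MAX that are not members, MLXIP and MLXIPL (MondoA and ChREBP, which sense glucose-derived metabolites) and MGA (a large MAX partner that carries a T-box), all rose in serum-starved cells against control cells, by 0.34, 1.26 and 0.60. With median centring only MLXIPL was still called, and the value of MLXIP was -0.05. With ADMA against serum starvation MLXIP alone rose, by 0.33, a call lost with median centring. Of the known MLX and Mondo target genes, 3 were tested and 3 rose in serum-starved cells against control cells, among them TXNIP, an inhibitor of glucose uptake, by 1.43, ARRDC4, its close relative, by 1.07, and KLF10 by 0.45, the last lost with median centring at 0.06. ARRDC4 fell by 1.19 on the log2 scale in ADMA-treated cells against serum-starved cells, whereas TXNIP differed by -0.11 and was not called.

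Of 11 tested genes of the SIN3 corepressor complex, through which the MXD proteins and MNT repress, 3 rose and 6 fell in serum-starved cells against control cells, with a median of -0.34, so that 9 of 11 were called, against 57.6% of all tested genes. SIN3B, a scaffold of the complex, rose by 1.68, and the subunits SUDS3 and ARID4B, named here after their values were seen, rose by 0.32 and 0.96, although SUDS3 stood at -0.07 with median centring. SAP30, a linker of SIN3 to the deacetylases, differed by -1.64 and RBBP7, a histone chaperone, by -1.18, both called. The other 4 that fell, named after their values were seen, were the second scaffold SIN3A (-0.60), the deacetylase HDAC2 (-1.11), SAP18 (-0.34, and not called with quantile normalization, at -0.17) and RBBP4 (-0.44). With ADMA against serum starvation, RBBP7 was the only gene of the list called, at 0.70, although SIN3B also passed, at -0.44 and -0.55, with quantile normalization and median centring.

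Of 12 tested MYC coactivators with the MYC partner ZBTB17, 5 rose and 5 fell in serum-starved cells against control cells, against 30.3% higher and 27.3% lower over all tested genes, and the median was 0.01. RUVBL1 and RUVBL2, ATPases of the TIP60 and INO80 complexes, differed by -1.94 and -1.61, and EP400, the motor of the TIP60 complex, by 1.38. TRRAP, KAT5, BPTF and CCNT1, named after their values were seen, rose by 0.51, 0.28, 1.14 and 0.34, of which median centring left only BPTF called and put KAT5 at -0.11 and CCNT1 at -0.05. KAT2A, ACTL6A and WDR5, also named after their values were seen, differed by -0.75, -0.98 and -0.90, all called. Median centring gave 2 higher and 6 lower. RUVBL1 and RUVBL2 were the only genes of this list called with ADMA against serum starvation, at 0.72 and 0.70.

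Of 15 tested genes that act on MYC protein stability, 5 rose and 5 fell in serum-starved cells against control cells, which is near the 57.6% of all tested genes called, and 5 rose and 8 fell with median centring. AURKA, the mitotic kinase that stabilizes MYCN, differed by -2.37 and SKP2, a ubiquitin ligase subunit for MYC, by -2.24, while FBXO32, another ligase subunit, rose by 1.74. FBXW7, which marks phosphorylated MYC for degradation, with USP36, GSK3B and BTRC rose by 0.99, 0.96, 0.91 and 1.48, and CIP2A, PPP2R5A and STUB1 differed by -1.25, -0.44 and -0.30, all called and named after their values were seen, the call of STUB1 being lost with quantile normalization at -0.13. With ADMA against serum starvation, AURKA rose by 1.14, SKP2 by 1.03, and PPP2R5A, whose call was lost with median centring at 0.38, by 0.50. FBXW7 and USP36 differed by -0.62 and -0.35, both called. Probe set 207783_x_at, taken for HUWE1, a further ubiquitin ligase for MYC, rose by 0.65 (0.32 with quantile normalization). It read 32420 to 39660 after ADMA, 20340 to 26580 after serum starvation and 21980 to 23300 in control cells. Whether this bright signal comes from HUWE1 alone was not tested.

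Of 6 tested regulators of the MYC gene or its mRNA, TCF7L2, an effector of Wnt signalling, rose by 1.38 in serum-starved cells against control cells, where FUBP1 and HNRNPK, which bind single-stranded DNA upstream of MYC, differed by -0.52 and -0.32 and CTCF, named after its value was seen, by -0.30, all called. With quantile normalization HNRNPK and CTCF lost their calls, at -0.16 and -0.23. HNRNPK alone rose with ADMA against serum starvation, by 0.45.

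Genes that MYC is known to activate fell in serum-starved cells for 25 of 35 tested genes and rose for none, set against control cells, where 27.3% of all tested genes were called lower and 30.3% higher. Their median was -1.09, against 0.07 over all tested genes. Among the 10 not called, SLC7A5, named after its value was seen, was the only gene above 0, at 0.18, and it stood at -0.21 with median centring. CDC25A, a phosphatase that promotes entry into S phase, read 166 to 286.9 after ADMA, 45.43 to 175.3 after serum starvation and 610.8 to 780.1 in control cells, a difference of -2.72 (standard error 0.381) between serum-starved and control cells. UNG, a uracil-DNA glycosylase, read 1418 to 1820 after ADMA, 1001 to 1287 after serum starvation and 6268 to 6963 in control cells, with -2.52 (standard error 0.0991) in that comparison, and MRTO4, a ribosome assembly factor, had -2.01 (standard error 0.111).

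With ADMA against serum starvation, 22 of the 35 rose and none fell, against 15.7% higher and 13.8% lower over all tested genes, with a median of 0.44, against 0.03 over all tested genes. DNPH1, a nucleotide hydrolase, rose by 0.93 (standard error 0.0725), MRTO4 by 0.80 (standard error 0.104) and NOP16, a nucleolar protein, by 0.73 (standard error 0.1). The count was 18 higher with quantile normalization, and 13 higher and 1 lower with median centring. ADMA-treated cells had 24 of the 35 lower than control cells (23.2% of all tested genes) and 1 higher (26.6%), PTMA (prothymosin), named after its value was seen, at 0.31 and at -0.19 with median centring. The median was -0.55, and median centring, which moved all differences of this comparison by -0.51, gave 32 lower and none higher.

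Of 10 tested genes that MYC is known to repress, 7 rose and 2 fell in serum-starved cells against control cells, beside 30.3% higher and 27.3% lower over all tested genes, with a median of 0.77, against 0.07 over all tested genes. With median centring 5 rose and 2 fell, the median was 0.38, and CDKN1B and THBS1, named after their values were seen, lost their calls. CDKN2B, the inhibitor p15 of the kinases CDK4 and CDK6, read 1849 to 2354 after ADMA, 3194 to 3546 after serum starvation and 155.6 to 189.3 in control cells, and rose by 4.26 (standard error 0.103) in serum-starved against control cells. CDKN1A, the inhibitor p21, rose by 1.80 (standard error 0.0823) and CDKN1C, the inhibitor p57, by 1.5 (standard error 0.0976) in that comparison. NDRG2, a relative of NDRG1, differed by -1.93 (standard error 0.184), and CEBPA, a differentiation factor named after its value was seen, by -0.62.

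With ADMA against serum starvation 6 of the 10 repressed genes fell and 2 rose, against 13.8% lower and 15.7% higher over all tested genes, with a median of -0.66, against 0.03. CDKN1A differed by -1.16 (standard error 0.077), NDRG1, a stress-responsive gene, by -0.93 (standard error 0.111), CDKN1C by -0.91 (standard error 0.0913) and CDKN2B by -0.65 (standard error 0.0966). NDRG2 rose by 0.91 (standard error 0.172) and THBS1, an inhibitor of angiogenesis named after its value was seen, by 0.42, at 0.30 and not called with median centring. Against control cells, 4 of the 10 were higher and 3 lower in ADMA-treated cells, beside 26.6% higher and 23.2% lower over all tested genes. After median centring, which moved all differences of this comparison by -0.51, 2 were higher and 5 lower. The lists of activated and repressed genes hold cell cycle and ribosome genes that many regulators share, and no test of either list as a whole was made.

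**Figure D5:**
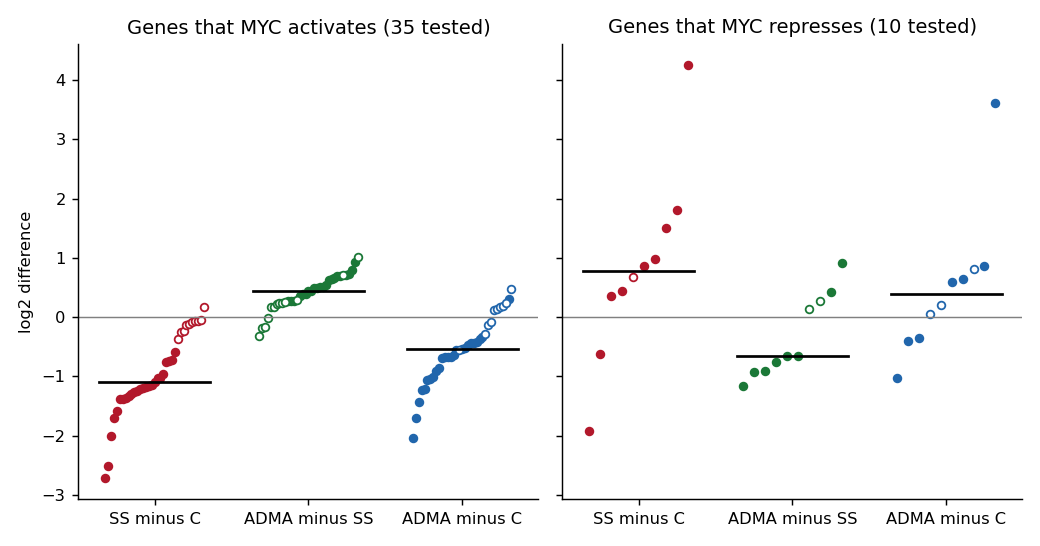
Log2 difference (vertical axis) of each tested MYC-activated gene (left) and MYC-repressed gene (right), 1 point per gene in rising order, in serum-starved against control cells (SS minus C), ADMA-treated against serum-starved cells and ADMA-treated against control cells, with filled points for called differences and a bar at the median of each list. The activated genes had medians of -1.09, 0.44 and -0.55 and the repressed genes of 0.77, -0.66 and 0.40 in these comparisons.

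By the root mean square distance of log2 signals centred on their mean over the 10 arrays, the 5 tested genes with a pattern most like that of MYC were JAGN1 (0.062), GOLM1 (0.0676), GLO1 (0.0748), RAN (0.0754) and CLIC1 (0.0777), against 0.273 for MYC about its own mean. GLO1, which encodes the glyoxalase that clears methylglyoxal, had log2 differences of 0.63 between ADMA-treated and serum-starved cells and -0.58 between serum-starved and control cells, and RAN, the GTPase of nuclear transport, had 0.49 and -0.55. No member of the network was among these 5 genes.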

How the data were processed

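RNA of 10 cultures of LoVo cells was hybridized to 1 array each. The authors made the deposited intensities with the Affymetrix MAS algorithm, as 1 linear signal per probe set, scaled so that all arrays share a mean of 500.1 once 2% of values are trimmed at each end. Here the log2 was taken with no pseudocount. The platform annotation gives 1 gene symbol to 41091 of the 54675 probe sets, several to 1801 and none to 11721, besides 62 controls. Genes were named only from probe sets with 1 symbol, by the probe set with the highest mean log2 signal, and tested where that mean reached the median of all probe sets, a signal of 76.3, so that 12342 of 19775 genes entered. A single limma fit (version 3.58.1, R 4.3.3) took in all 10 arrays, with the variance prior allowed to follow intensity, and p-values were adjusted by Benjamini-Hochberg across every tested gene. A call needed an adjusted p below 0.01 together with a 1.2-fold change, as in the SAM step of the study. SAM itself regroups the samples and was not run. The background level of an array was the 95th percentile of 27 spike-in control probe sets absent from human RNA.

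Members and gene lists were chosen with earlier results of these data known. By rule, the text names all members, all Mondo and MGA partners, in each other list the 3 called genes with the largest difference in serum-starved against control cells and the 3 in ADMA-treated against serum-starved cells, and the 5 genes nearest to MYC. Genes named beside these are marked as chosen after their values were seen. The fit was tested on simulated data with the spread of 12342 genes in serum-starved against control cells. Log2 changes of 0.5, 1 and 2 were seeded in 67, 67 and 66 genes. It found 37.3%, 68.7% and 95.5% of them and made 0 false calls. In the data themselves 57.6% of tested genes were called in this comparison, and the adjusted p depends on that share. Neither the recovery nor the lack of false calls therefore carries over to the data. Each group holds 3 or 4 arrays, which bounds the precision. Arrays of the same group correlated at up to 0.946, and 0 pairs were identical. Alternatives were quantile normalization, median centring, a pseudocount of 16, a floor at background, other filters, averaging over probe sets, omission of those ending in _x_at or _s_at, limma without trend or with array weights, the arrays of the groups compared alone, another threshold, the replicate number as a block, each array left out and, added after the data had been seen, every probe set in place of 1 per gene. Plots were made in matplotlib 3.10.9 (Python 3.11.15).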

Additional observations from a re-analysis of the deposited data

How the results depend on the processing

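The count of called members was 6, 5 and 5 in serum-starved against control cells, ADMA-treated against serum-starved cells and ADMA-treated against control cells. With a filter at the 75th percentile of signal, which left 6 members to test and removed MYCN, MYCL and MXD3, it was 3 and 2 in the first and second of these. Without probe sets ending in _x_at or _s_at it was 3, 2 and 3. That setting also left 6 members and removed MYC, MYCN and MXD3, so that MYC itself was not tested there. All members so removed had been called in the first and second comparisons, and the lower counts there reflect their absence from the test. In ADMA-treated against control cells MYC, MYCN and MXD3 had not been called. The called probe sets of MAX and MLX end in _s_at, and 214108_at and 1570347_at took their place. Neither of these was called there in the fit of every probe set. With each gene taken as the average of its probe sets the count of called members was 2 in ADMA-treated against serum-starved cells and 1 in ADMA-treated against control cells, and the count over all genes in ADMA-treated against serum-starved cells was 2337, against 3639. Over all genes, 3738 were higher and 3372 lower in serum-starved against control cells as deposited, and 2014 and 5184 with median centring. These were 1935 and 1704, and 902 and 2097, in ADMA-treated against serum-starved cells, and 3284 and 2859, and 1209 and 6101, in ADMA-treated against control cells. Leaving out each array gave 6 to 7, 5 and 4 to 6 called members and 6612 to 7092, 2840 to 3620 and 5668 to 6148 called genes. Signs turned with median centring for MLX in serum-starved against control cells (-0.185) and, in ADMA-treated against control cells, for MYC (-0.482), MYCN (-0.226), MXI1 (-0.317) and MLX (-0.162). They turned with quantile normalization for MXI1 in serum-starved against control cells (0.0872), and for MAX with the mean of its probe sets (0.00966, 0.0443 and 0.054 in the 3 comparisons) or without _x_at and _s_at probe sets (0.0595 in serum-starved against control cells). With arrays left out, MYC in ADMA-treated against control cells lay between -0.0337 and 0.0961 and MXI1 in serum-starved against control cells between -0.0865 and 0.0299. Median centring moved all differences by -0.39 in serum-starved and by -0.51 in ADMA-treated against control cells, where the median over all tested genes was 0.07. The cause of the differing array medians, and of the other shifts, was not tested. With the average of probe sets the calls of MXD1 (-0.426) and MYCL (0.416) in ADMA-treated against serum-starved cells and of MNT in serum-starved against control cells (0.512) were lost as well. The ratios of MYC to an antagonist were recomputed with quantile normalization, a pseudocount of 16, the floor at background, the average of probe sets and each array left out, and 0 turned their sign. Of the 12 ratios, 6 had an adjusted p under 0.05 in the main setting, and all 6 lost it with the average of probe sets. The ratio to MXI1 was itself unchanged by averaging, and lost it only through the p of the other ratios. With quantile normalization the ratio to MXD3 passed in ADMA-treated against control cells, at 0.823. With each array left out, every one of the 6 that had passed in the main setting lost it in 7 of 10 omissions, 42 of 120 values. These were the omissions of an array of the groups compared, where the smallest p that the test allows rose too high. The losses were thus fixed in advance and say nothing about the ratios. Same-numbered arrays did not deviate together, with 9 correlations of -0.0741 to 0.1, and no pairing was used in the main fit. These correlations cannot show whether cultures with the same number were set up together. With the replicate block the called members numbered 6, 5 and 5 and the called genes 7058, 3083 and 5943.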
